A study of Danio rerio with 6 samples.

Results

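Folding and processing of procollagen was examined through 5 genes, *plod2*, *pcolce2b*, *cthrc1a*, *serpinh1a* and *serpinh1b*, among the 32520 genes of an RNA-seq count table from injured zebrafish hearts. The genes were chosen by name for their part in collagen biosynthesis, with earlier results of these data known. Each was set against type I collagen in the same library, measured as the summed counts of *col1a1a*, *col1a1b* and *col1a2*. All 5 passed the filter on low counts, as did 17879 genes in total. The *mdka cn105* group (labelled MDKA KO) carried a CRISPR/Cas9 mutation of *mdka*, a gene for the secreted growth factor Midkine, in every cell of the fish, and a single allele stood for the loss of the gene. Its control group was *mdka +/+*. Both groups were adult fish of AB background whose ventricle had been cryoinjured, and both were sampled 7 days post-cryoinjury (dpci), so that no uninjured heart entered any comparison. Each genotype was represented by 3 libraries, each described in the methods as a pool of 3 ventricular apexes. The replicate is therefore the pool, and differences between single hearts are not visible.

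Fibrillar collagen is made as procollagen chains that are hydroxylated and folded into a triple helix in the endoplasmic reticulum (ER), secreted, trimmed at both ends and cross-linked into fibrils. Most of the genes studied act at a step of this route. Both *serpinh1* genes encode the collagen chaperone Hsp47, and *plod2* encodes a lysyl hydroxylase that prepares collagen for cross-linking. The product of *pcolce2b* is an enhancer of the proteinases that remove the C-terminal propeptide. *cthrc1a* encodes a secreted glycoprotein with a short collagen repeat and is assigned to none of these steps here. In the injured zebrafish heart, collagen is deposited by fibroblasts and epicardium-derived cells and is later cleared as muscle regenerates.

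Library totals ranged from 18940128 to 25195457 expected counts. The targeted gene had 81.8, 132 and 139 CPM (counts per TMM-adjusted library size, TMM being edgeR's trimmed mean of M-values) in *mdka cn105* replicates 2, 3 and 4, against 429, 731 and 1070 CPM in *mdka +/+* replicates 1, 2 and 4, in the direction of the labels. The same replicate order is used for all values below. Summed cardiomyocyte markers reached 33697 to 41691 CPM in *mdka cn105* pools and 47962 to 53576 CPM in *mdka +/+* pools, and 5 of the 7 were lower by the test described below (0 of 7 when libraries were scaled by total counts only). Summed macrophage markers reached 865 to 1073 CPM in *mdka cn105* and 511 to 688 CPM in *mdka +/+* pools, and 4 of 4 were higher. Summed fibroblast and epicardium markers overlapped, with 6532 to 8560 CPM in *mdka cn105* and 5792 to 7839 CPM in *mdka +/+* pools, and 1 of 10, *dcn*, was higher. The largest part of that sum was *fn1* (ENSDARG00000006526), with means of 3750 CPM in *mdka cn105* and 3760 CPM in *mdka +/+* pools. Log2 fold changes of the 10 markers ran from -0.22 to 0.56 (*postn*, not called), with a median of 0.14, and 7 were positive. Of the other lists, 3 of 5 erythroid markers were higher, 2 of 7 endothelial markers were higher and 1 was lower, and 1 of 2 neutrophil markers was lower, where 5.64% of all tested genes were higher and 6.42% lower. With total-count scaling, 5 of 5 erythroid markers were higher, 3 endothelial markers were higher and 0 lower, and 2 of 10 fibroblast and epicardium markers were higher. That scaling called 2081 of all genes higher and 501 lower, against 1009 and 1148 with TMM. No tested marker of the first 3 lists was at 0, and the part of tissue composition in the results was not tested. In bulk tissue, fewer cells of a type and less RNA per cell cannot be told apart.

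All 5 genes were upregulated in *mdka cn105* ventricles, by 1.501-fold to 1.996-fold. The largest change was that of *pcolce2b* and the smallest that of *serpinh1b*. Type I collagen was also upregulated, and when each gene was expressed relative to type I collagen no change between genotypes passed the test. *serpinh1b* kept the steadiest ratio to collagen, while *plod2*, *pcolce2b* and *cthrc1a* departed from collagen in several pools.

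The collagen chaperone genes are paralogs on different chromosomes. *serpinh1a* (ENSDARG00000075954; GRCz11 chromosome 10, 38512270 to 38521710, forward strand) had 124, 125 and 133 CPM in *mdka cn105* pools, against 60.8, 69.3 and 93.9 CPM in *mdka +/+* pools. The 3 *mdka cn105* pools lay close together, with a coefficient of variation of 3.90%, whereas the *mdka +/+* pools spread by 23.0%. Its means were 127 ± 4.95 CPM in *mdka cn105* and 74.7 ± 17.2 CPM in *mdka +/+* hearts (SD, n = 3 pools each) and differed by 0.77 on the log2 scale (standard error 0.17, edgeR quasi-likelihood test with Benjamini-Hochberg adjusted p = 0.191). *serpinh1b* (ENSDARG00000019949; chromosome 15, 29382454 to 29388012, reverse strand) had 25.4, 31.4 and 28.3 CPM in *mdka cn105* and 16.4, 18.6 and 21.8 CPM in *mdka +/+* pools. The genotypes did not overlap for either paralog. Mean *serpinh1b* was 28.4 ± 3.03 CPM in *mdka cn105* and 18.91 ± 2.72 CPM in *mdka +/+* hearts (SD, n = 3 each), and its log2 fold change was 0.59 (SE 0.15, edgeR adjusted p = 0.213).

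*plod2* (ENSDARG00000011821; chromosome 24, 5237709 to 5314707, forward strand) had 282, 231 and 305 CPM in *mdka cn105* pools, against 172, 171 and 177 CPM in *mdka +/+* pools. The *mdka +/+* pools were almost level, with a coefficient of variation of 1.65%, and the spread in *mdka cn105* (13.9%) came with a low value in replicate 3. Means were 273 ± 37.9 CPM in *mdka cn105* and 173 ± 2.86 CPM in *mdka +/+* hearts (SD, n = 3 each). On the log2 scale *plod2* was 0.65 higher (SE 0.13, edgeR adjusted p = 0.164).

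*pcolce2b* (ENSDARG00000055575) lies on the same chromosome, from 5871589 to 5910811 on the reverse strand, 556.9 kb from *plod2*. It had 154, 119.9 and 145 CPM in *mdka cn105* pools, against 51.0, 84.5 and 74.4 CPM in *mdka +/+* pools. As for *plod2*, replicate 3 was the lowest *mdka cn105* pool, yet it stood above every *mdka +/+* pool. The means of 139.6 ± 17.8 CPM in *mdka cn105* and 69.98 ± 17.2 CPM in *mdka +/+* hearts (SD, n = 3 each) differed by 0.997 on the log2 scale (SE 0.20, edgeR adjusted p = 0.164).

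*cthrc1a* (ENSDARG00000087198; chromosome 19, 12915498 to 12927089, forward strand) was the gene with the fewest counts, 152 to 428 per library. It had 15.7, 19.9 and 20.8 CPM in *mdka cn105* pools, against 14.2, 7.88 and 10.9 CPM in *mdka +/+* pools. The genotypes were separated only narrowly, since *mdka +/+* replicate 1 came close to *mdka cn105* replicate 2. Means were 18.8 ± 2.74 CPM in *mdka cn105* and 10.97 ± 3.15 CPM in *mdka +/+* hearts (SD, n = 3 each). Its log2 fold change of 0.77 was the least precise of the 5 (SE 0.23, edgeR adjusted p = 0.246).

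**Figure D1:**
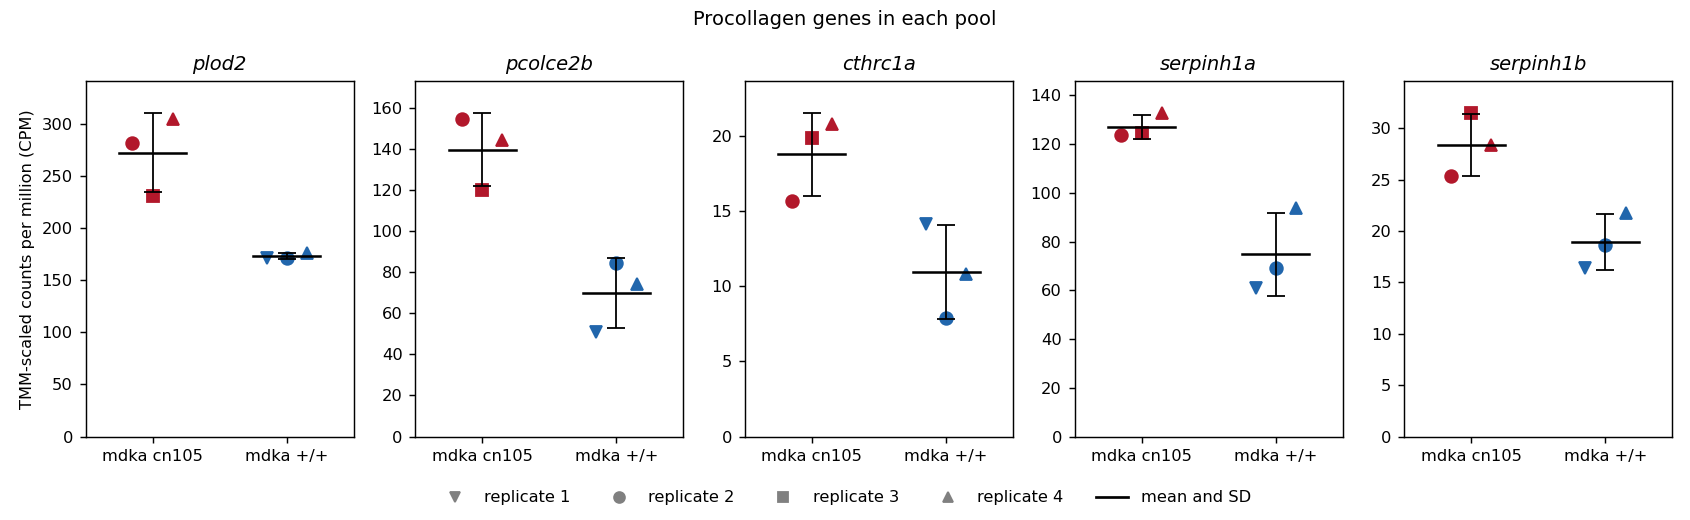
TMM-scaled CPM (vertical axes, linear from 0) of each procollagen gene in the 3 *mdka cn105* pools (red, left) and the 3 *mdka +/+* pools (blue, right), with marker shapes for replicate numbers and bars for mean and SD. In every panel the *mdka cn105* pools lie above the *mdka +/+* pools, most narrowly for *cthrc1a* (lowest *mdka cn105* pool 15.7, highest *mdka +/+* pool 14.2).

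A gene was called when its unadjusted p was under 0.05, the threshold that the methods of the study set. By this rule 5 of 5 genes were higher in *mdka cn105*, with unadjusted p-values between 0.00108 and 0.00965 in edgeR's test, where 5.64% of all tested genes were called higher, 6.42% lower and 12.1% in either direction. All 5 also had every *mdka cn105* pool above every *mdka +/+* pool, as did 8.75% of all tested genes. The study names *plod2*, *pcolce2b* and *cthrc1a* as upregulated in these libraries, and all 5 were chosen with earlier results known. It also reports qPCR on other samples, in which *col1a1a*, *col1a1b* and *col1a2* were among the genes upregulated. Its qPCR primer list includes *plod2*, *pcolce2b* and *cthrc1a*. The calls of all 5 were thus not independent of their choice, and setting them beside the shares of all genes is no test of the 5. With Benjamini-Hochberg adjustment over all tested genes, edgeR's adjusted p-values lay between 0.164 and 0.246, so that 0 of 5 passed 0.05 (0.00559% of all genes did). DESeq2's Wald test gave 4 of 5 an adjusted p under 0.05, the exception being *cthrc1a* with 0.0667. Of all genes, 445 had an adjusted p under 0.05 in DESeq2, against 1 in edgeR.

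Type I collagen, the main product of this route, was higher in every *mdka cn105* pool. Its 3 transcripts summed to 4548, 5894 and 5299.7 CPM in *mdka cn105* pools and to 3081, 3606 and 3989 CPM in *mdka +/+* pools, a ratio of means of 1.47. The log2 fold changes of *col1a1a*, *col1a1b* and *col1a2* were 0.62, 0.54 and 0.51, each with an unadjusted edgeR p under 0.05. For *col1a2* the call was lost without *mdka cn105* replicate 3, the pool with the most collagen (log2 fold change 0.42, edgeR adjusted p = 0.621), and it was lost in no other fit that left out 1 library.

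Expressed per 1000 type I collagen counts, the genotypes overlapped for every gene. *serpinh1a* stood at 27.2, 21.1 and 25.02 counts in *mdka cn105* and 19.7, 19.2 and 23.5 counts in *mdka +/+* pools. *serpinh1b* stood at 5.58, 5.33 and 5.35 in *mdka cn105* and 5.31, 5.16 and 5.46 in *mdka +/+* pools. The first paralog tended to the upper end in *mdka cn105* without separating from *mdka +/+*, and the second hardly moved.

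For *plod2* the ratio was 62.1, 39.1 and 57.5 per 1000 collagen counts in *mdka cn105* and 55.8, 47.5 and 44.3 in *mdka +/+* pools, so that *mdka cn105* held both the highest and the lowest value. *pcolce2b* stood at 34.0, 20.3 and 27.3 in *mdka cn105* and 16.6, 23.4 and 18.6 in *mdka +/+* pools. Here 2 *mdka cn105* pools lay above all *mdka +/+* pools, and replicate 3 lay among them. The ratio of *cthrc1a* was 3.45, 3.37 and 3.93 in *mdka cn105* and 4.60, 2.19 and 2.72 in *mdka +/+* pools, with the highest value in *mdka +/+* replicate 1.

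**Figure D2:**
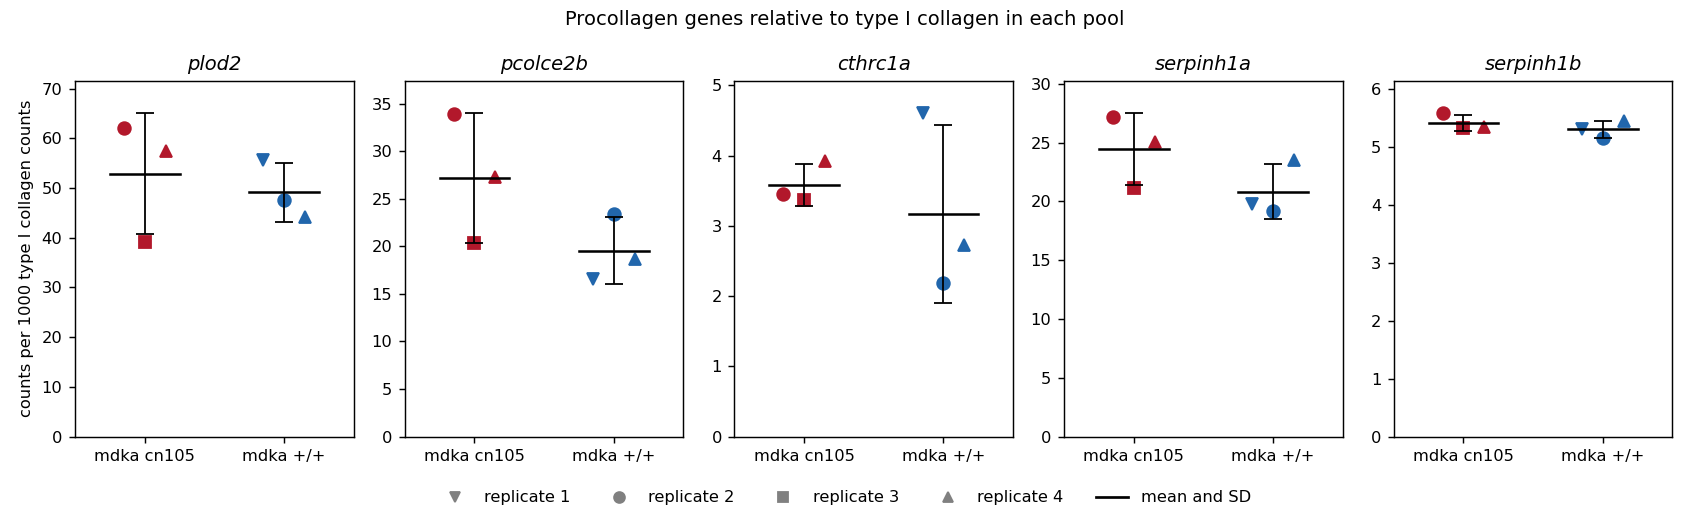
Counts of each procollagen gene per 1000 summed *col1a1a*, *col1a1b* and *col1a2* counts (vertical axes, linear from 0) in *mdka cn105* (red, left) and *mdka +/+* pools (blue, right), with mean and SD over 3 pools. The genotypes overlap in every panel, and *serpinh1b* stays between 5.16 and 5.58 in all 6 pools.

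A fit across all genes with each library scaled by its type I collagen counts tested these ratios. The log2 fold change relative to collagen was 0.48 for *pcolce2b* (95% confidence interval -0.06 to 1.01, edgeR adjusted p = 0.142), 0.23 for *serpinh1a* (-0.23 to 0.69) and 0.18 for *cthrc1a* (-0.42 to 0.77). It was 0.11 for *plod2* (-0.40 to 0.61) and 0.03 for *serpinh1b* (-0.40 to 0.46), and the adjusted p-values of these 4 genes lay between 0.378 and 0.905 in edgeR's test. Thus 0 of 5 genes were called by edgeR at an unadjusted p under 0.05. Of all genes in that fit, 45.9% were called, 45.4% lower and 0.481% higher. The median gene lay 0.56 below collagen on the log2 scale. The 5 were chosen with earlier results known, so setting them beside the share of lower genes is no test of them. The intervals still allow a rise of *pcolce2b* relative to collagen of the size it showed in CPM. An exact two-sided permutation test of the mean log2 ratio gave p = 0.2 for *pcolce2b* and *serpinh1a*, 0.4 for *serpinh1b*, 0.5 for *cthrc1a* and 0.8 for *plod2*, where 3 pools against 3 allow none below 0.1. Single pools decided some of these values: without *mdka cn105* replicate 3, *pcolce2b* was called relative to collagen (0.65, edgeR adjusted p = 0.195), and without *mdka +/+* replicate 1, *cthrc1a* was (0.54, adjusted p = 0.134).

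The steadiness of the ratio differed widely among the 5 genes. The highest ratio exceeded the lowest by 1.08-fold for *serpinh1b*, 1.41-fold for *serpinh1a*, 1.59-fold for *plod2*, 2.05-fold for *pcolce2b* and 2.11-fold for *cthrc1a*. Across the 6 pools the log2 ratio of *serpinh1b* to collagen had an SD of 0.04, and 0 of 17876 genes outside the collagen sum had a smaller one. Its coefficient of variation, 2.65%, was below the counting error expected from its 352 to 677 counts (3.84% to 5.33%), so that its closeness to collagen cannot be resolved further at this depth. The SD was 0.20 for *serpinh1a* (319 genes had a smaller one), 0.25 for *plod2* (996), 0.38 for *pcolce2b* (5489) and 0.38 for *cthrc1a* (5525). These ranks describe 6 libraries and carry no test. The SD includes the shift between genotypes, and the median gene lay 0.56 below collagen in *mdka cn105* on the log2 scale. Genes that rose as collagen did therefore tend to a small SD.

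Whether each gene followed collagen from pool to pool was then described after removing the genotype means. The deviations of log2 CPM from the genotype mean correlated with those of summed type I collagen at r = 0.98 for *serpinh1b* and 0.68 for *serpinh1a* (n = 6 pools sharing 2 genotype means, and libraries and scaling in common). For *pcolce2b*, *cthrc1a* and *plod2* the values were 0.21, -0.08 and -0.38. Over all tested genes the median was 0.01, and 7.92% of genes had a value of 0.8 or more. Without removing the genotype means, r over the 6 pools was 0.99 for *serpinh1b*, 0.93 for *serpinh1a*, 0.83 for *pcolce2b*, 0.76 for *plod2* and 0.70 for *cthrc1a*. These values include the shift between genotypes.

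Individual pools show where the genes parted from collagen. *mdka cn105* replicate 3 had the most collagen of its genotype, 0.18 above the mean on the log2 scale, but the least *plod2* (0.23 below) and the least *pcolce2b* (0.21 below). *mdka cn105* replicate 2 had the least collagen of its genotype (0.20 below) and the least *cthrc1a* (0.25 below). Its *plod2* was 0.06 above and its *pcolce2b* 0.15 above. *mdka +/+* replicate 1 had the least collagen, 0.20 below its genotype mean, and also the least *pcolce2b* (0.42 below), while its *cthrc1a* was 0.41 above. In *mdka +/+* replicate 2, collagen was near its mean (0.03 above), *pcolce2b* was 0.30 above and *cthrc1a* 0.44 below. In *mdka cn105* replicate 4 and *mdka +/+* replicate 4 both genes were above their genotype means.

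**Figure D3:**
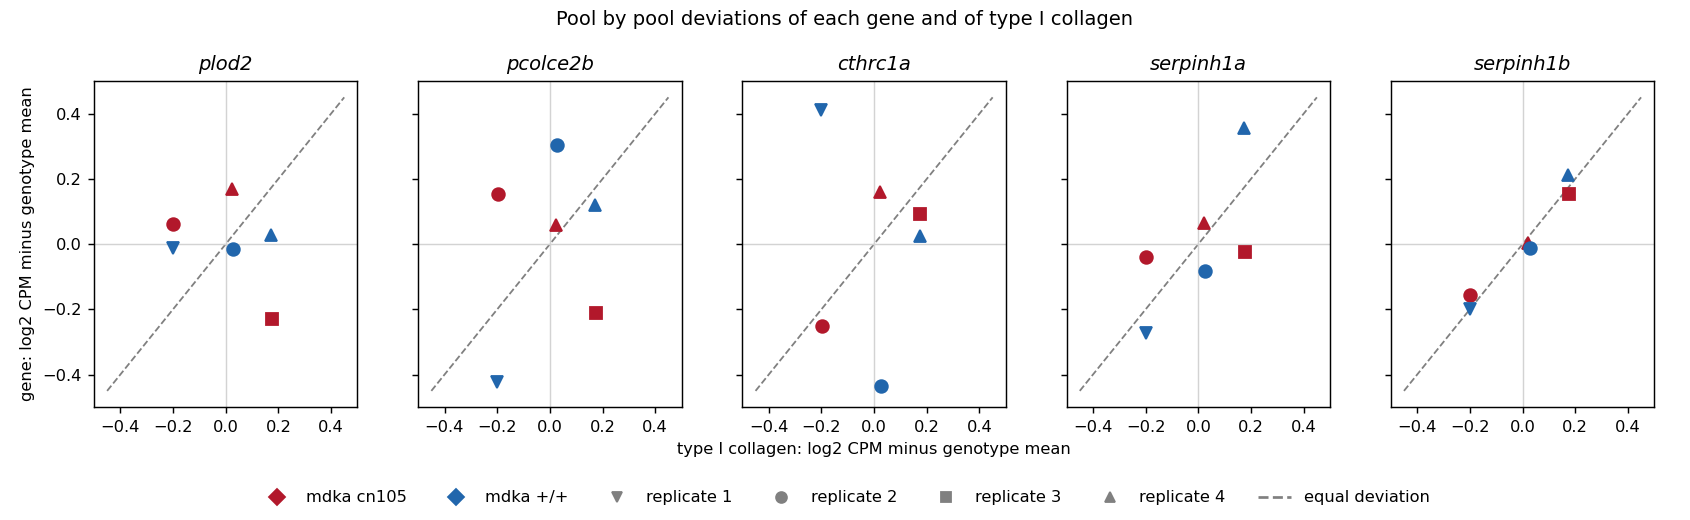
Deviation of each procollagen gene from its genotype mean (vertical axes, log2 CPM) against that of summed type I collagen (horizontal axes, log2 CPM) for *mdka cn105* (red) and *mdka +/+* pools (blue), with a dashed line of equal deviation. The 6 points of *serpinh1b* lie along the line (r = 0.98), whereas those of *plod2* (r = -0.38) and *cthrc1a* (r = -0.08) do not.

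The balance of the *serpinh1* paralogs, of the *col1a1* paralogs and of the type I collagen chains overlapped between genotypes. With 3 pools against 3 the exact tests below could not reach a p under 0.1. *serpinh1a* supplied 83.0%, 79.9% and 82.4% of the counts of both *serpinh1* genes in *mdka cn105* pools, against 78.8%, 78.8% and 81.2% in *mdka +/+* pools. The ranges overlapped, and the difference in mean log2 ratio, 0.20, had an exact two-sided permutation p of 0.2. *col1a1a* made up 52.0%, 51.6% and 50.1% of *col1a1* counts in *mdka cn105* and 48.5%, 49.6% and 51.0% in *mdka +/+* pools, again with overlap (difference 0.09, exact permutation p = 0.2). The *col1a2* counts equalled 41.9%, 42.3% and 43.8% of the *col1a1* counts in *mdka cn105* and 40.6%, 44.98% and 47.8% in *mdka +/+* pools (difference in log2 *col1a1* over *col1a2* 0.06, exact permutation p = 0.6). These are shares of counts and are not corrected for transcript length, and are not molar proportions. RSEM divides reads shared by similar copies, so the paralog counts are estimates.

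**Figure D4:**
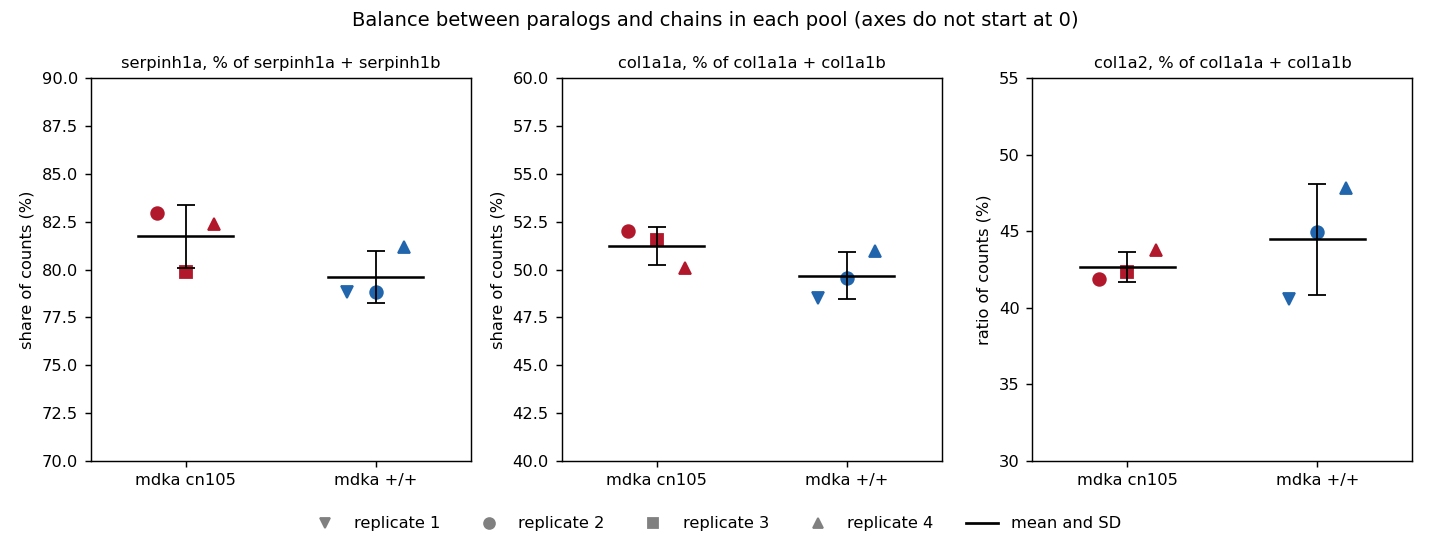
Share of *serpinh1a* among *serpinh1* counts (left, percent), share of *col1a1a* among *col1a1* counts (middle, percent) and *col1a2* counts as a percent of *col1a1* counts (right) in *mdka cn105* (red) and *mdka +/+* pools (blue), with mean and SD over 3 pools and axes that do not start at 0. The genotypes overlap in all 3 panels, with *serpinh1a* between 78.8% and 83.0% throughout.

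Within the wider families, *plod2* supplied 67.9%, 66.5% and 70.9% of lysyl hydroxylase (*plod1*, *plod2* and *plod3*) counts in *mdka cn105* and 71.3%, 62.5% and 58.6% in *mdka +/+* pools. *cthrc1a* gave 90.3% to 97.4% of the counts of both *cthrc1* genes in *mdka cn105* and 93.2% to 95.6% in *mdka +/+* pools. *pcolce2b* was the gene of the 5 whose family share separated the genotypes: it held 55.9%, 40.8% and 43.3% of the counts of *pcolce2b*, *pcolce2* and *pcolcea* in *mdka cn105* pools, against 28.4%, 38.7% and 25% in *mdka +/+* pools. *pcolcea*, encoding a further propeptide-cleavage enhancer, had a log2 fold change of -0.01 (standard error 0.26) and *pcolce2* one of 0.39 (standard error 0.29), neither of which passed the test. The family shares were not tested.

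The rest of the procollagen route was read from a list of further genes ordered by step, drawn up with earlier results of these data known. Of the 52 tested genes of this list other than the 5 above, 11 were higher and 1 lower, with a median log2 fold change of 0.23, whereas all tested genes had 5.64% higher and a median of -0.01. The count of higher genes was 7 without *mdka cn105* replicate 3 and 17 without *mdka +/+* replicate 1. Of all genes, 759 and 1202 were called higher in these fits, against 1009 with all libraries. It was 22 when libraries were scaled by total counts only. That setting moved the median of all genes to 0.13 and turned the sign of no called gene of the lists. It also called 2081 of all genes higher, against 1009 with TMM.

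Among the listed collagen chaperones and FKBP prolyl isomerases of the ER, 7 of 8 were higher, *serpinh1a* and *serpinh1b* included. Of all tested genes, 5.64% were higher. A part in folding the triple helix was not tested for each of the 8. Both *serpinh1* genes were chosen with earlier results of these data known. *fkbp7* had 0.84 (log2 fold change, standard error 0.12; edgeR adjusted p = 0.096), *fkbp9* 0.67 and *fkbp14* 0.66. *fkbp10b* and *fkbp10*, whose human ortholog encodes FKBP65, had 0.62 and 0.40, while *fkbp11* with 0.62 (SE 0.32) missed the threshold. Of the lysyl hydroxylase and collagen glycosyltransferase genes, *plod3* was higher beside *plod2* (0.45, standard error 0.11). *colgalt1* (ENSDARG00000058270) with 0.37 (SE 0.16) and *plod1* with 0.26 (SE 0.31) were not called. In the prolyl 3-hydroxylase complex, *p3h1* (0.63) and *p3h4* (0.50) were higher, *ppib* (0.20) was not called and *p3h3* had -0.33 without passing the test. Of the prolyl 4-hydroxylase subunits, *p4hb*, the protein disulfide isomerase subunit, was higher (0.30, not called with relative log expression scaling). The catalytic subunit genes *p4ha1a* (0.25), *p4ha1* (0.25) and *p4ha2* (-0.07) were not called. The called genes of these steps thus came from several enzyme families.

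Of 14 genes for ER export of procollagen, *creb3l1*, a transcription factor of secretory and collagen genes in mammals, was higher (0.97, standard error 0.19), and *sar1ab*, a small GTPase of the export coat, was lower (-0.48, standard error 0.15; not called with total-count scaling). With total-count scaling 6 of the 14 were higher, *creb3l1*, *sec13*, *creb3l2*, *sec31a*, *sec23a* and *sar1b*. Of all genes, 2081 were called higher with that scaling, against 1009 with TMM. With TMM, *sec13* (0.22) and *creb3l2* (0.20) were not called, nor were the other genes with negative values, of which *mia3* (encoding the cargo receptor TANGO1) had the lowest at -0.22 and *sec23b*, *mia2*, *sec24c* and *klhl12* (ENSDARG00000112728) lay between -0.07 and -0.01. Beside *pcolce2b*, the C-proteinase genes *bmp1* (ENSDARG00000028071, 0.18) and *tll1* (-0.47) were not called, nor was *bmp1* ENSDARG00000028053 (-0.01). Of the 3 N-proteinase genes tested, *adamts3* had -0.34, *adamts14* 0.32 and *adamts2a* 0.08, all without passing the test. Among the 9 lysyl oxidase genes, which cross-link the fibrils, *lox* was higher (0.55, standard error 0.22). Not called were *loxl2a* (0.39), *loxl3* (ENSDARG00000039563, 0.38), *loxl1* (0.25), *loxl5b* (-0.15) and *loxl4* (ENSDARG00000025089, -0.33).

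**Figure D5:**
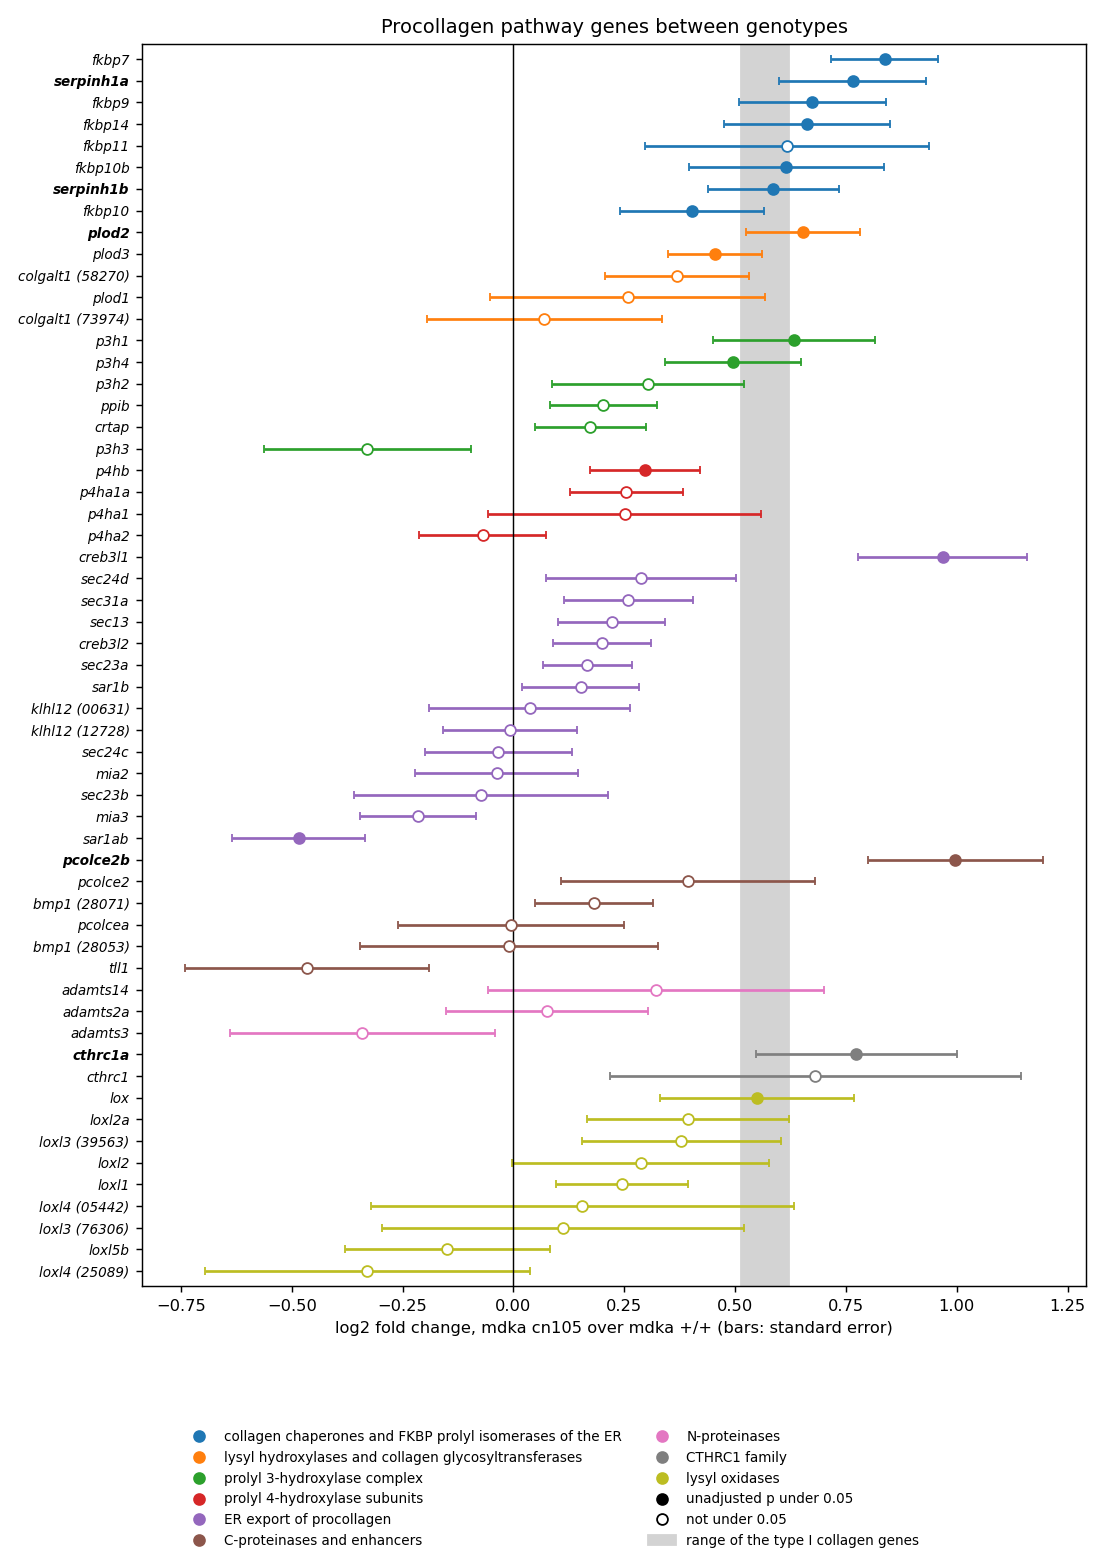
Log2 fold change of *mdka cn105* over *mdka +/+* (horizontal axis, bars for the standard error) of 57 tested procollagen pathway genes, coloured by step, with filled points for an unadjusted edgeR p under 0.05 and the 5 genes studied in bold. Of the chaperone and FKBP group 7 of 8 points are filled, *serpinh1a* and *serpinh1b* among them. The grey band spans the type I collagen genes (0.51 to 0.62), and the genes shown were chosen with earlier results known.

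Lists of related genes gave the surroundings of these values, to be read against 5.64% of all tested genes called higher and 6.42% lower. The 14 other collagen genes include basement membrane (*col4a1*, *col4a2*) and beaded filament chains (*col6a1*, *col6a2*, *col6a3*) beside fibrillar and fibril-associated ones. Of these, *col5a2a* (0.67) and *col5a1* (0.62) were higher and 0 were lower, with a median log2 fold change of 0.19. Both encode type V collagen chains, which the study describes as present in type I fibrils. Of 25 ER folding and stress genes that serve secreted proteins in general, *calr* (0.50) and *pdia5* (0.40) were higher and 0 were lower, a count near that of all genes, with a median log2 fold change of 0.08. *hspa5*, the major ER chaperone BiP, had -0.03 and *xbp1*, a transcription factor of the ER stress response, -0.35 (SE 0.17), and neither passed the test. *PLOD2* is a known hypoxia target in mammals, and a part of hypoxia in the *plod2* values was not tested. Of 19 genes of the hypoxia response, of which *p4ha1* is also in the list above, 2 were higher and 4 lower. Their median was -0.20 (3 higher and 1 lower with total-count scaling, median -0.06). The list also includes Hif genes themselves, among them *hif1aa*. The 4 lower genes were *vegfaa* (-0.53), *vegfab* (-0.44), *hif1aa* (-0.41) and *slc2a1* (ENSDARG00000007412, -0.66), and the higher ones were *adm* (ENSDARG00000069027, 1.13) and *bnip3l* (ENSDARG00000028067, 0.46).

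The genes most like each of the 5 across the 6 pools were taken from 8582 named genes with a mean of at least 10 CPM, by Pearson r of log2 CPM. For *serpinh1b* they were *chst2*, *col1a1a* and *uggt2*, with r between 0.995 and 0.998. For *serpinh1a* they were *msto1*, *p3h1* and *si:ch211-217k17.11* (0.990 to 0.995), and for *plod2* *si:ch211-214p16.1*, *uggt1* and *tes* (0.984 to 0.999). The closest to *pcolce2b* were *mier2*, *si:dkey-93h22.7* and *si:ch211-250g4.3* (0.992 to 0.998), and the closest to *cthrc1a* were *p4hb*, *calr* and *gtf2a1* (0.989 to 0.998). A type I collagen gene appeared for *serpinh1b* only, and none of the 5 genes was among the closest 3 of another. With 6 pools and this many genes, such values describe the libraries and carry no test. Pearson r takes no account of the size of a change. Between genotypes *mier2* (log2 fold change 0.18), *uggt1* (0.17) and *gtf2a1* (0.19) were not called, and the other genes named here were higher.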

How the data were processed

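Polyadenylated RNA of 7 dpci ventricular apexes was sequenced as stranded single reads. Per the submitters' processing notes, bcl2fastq 2.20.0.422, cutadapt, RSEM and the GRCz11 build were used. The values deposited by the authors are RSEM expected counts of 32520 genes, estimated per gene and neither normalized nor filtered; RSEM shares out reads that match several transcripts. The 6 library columns were assigned to genotypes by their titles. Nothing in the labels states whether pools of a genotype came from separate clutches, so p-values measure the spread between these pools. The labels speak of 3 KOs and WT in total, whereas the methods give 3 pools of 3 apexes each.

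After rounding to whole numbers, the counts were tested in edgeR 4.0.16 (R 4.3.3) with TMM, filterByExpr (minimum count 10, minimum total 15) and a two-sided quasi-likelihood test without covariates, with Benjamini-Hochberg adjustment over all 17879 tested genes. For values relative to collagen, library size was replaced by the summed *col1a1a*, *col1a1b* and *col1a2* counts. Ratios and paralog shares were compared by exact permutation over pools. CPM are not corrected for length and are compared only within a gene. The fits were tested on simulated data. Symbols came from the supplementary table of the study and a gene name table (29205 of 32520 IDs named); 12 of 178 listed symbols had no match.

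The 5 genes and all lists were chosen with earlier results of these data known. Named were these genes, the collagen genes and *mdka*, per step up to 4 pathway genes with the smallest p and those with a negative log2 fold change, up to 4 genes per other list, and the 3 genes most like each of the 5. *hspa5*, *adm*, *bnip3l*, *dcn*, *fn1*, *postn* and the FKBP genes beyond the first 4 are outside the rule and were named with their values known. Alternatives were relative log expression (RLE) or total-count scaling (for the marker and comparison lists added after seeing the data), DESeq2 1.42.0, limma-voom (limma 3.58.1), other filters, other collagen denominators, unrounded counts, a replicate block and leaving out every library once.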

Additional observations from a re-analysis of the deposited data

How the results depend on the processing

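All 5 procollagen genes kept their direction and an unadjusted p under 0.05 in each of the 13 alternatives to the comparison in CPM. Over the fits that each left out 1 library, log2 fold changes lay between 0.56 and 0.75 for *plod2*, 0.81 and 1.15 for *pcolce2b*, 0.58 and 1.002 for *cthrc1a*, 0.64 and 0.96 for *serpinh1a* and 0.49 and 0.70 for *serpinh1b*. The number of all genes called lay between 1332 (without *mdka cn105* replicate 4) and 2772 in these fits, against 2157 with all libraries. The number with an adjusted p under 0.05 was 1 in edgeR and 445 in DESeq2. Scaling by library size only called 2081 genes higher and 501 lower, against 1009 higher and 1148 lower with TMM. The same scaling called 22 pathway genes higher in place of 11, and leaving out a library gave between 7 and 17. Of all genes, leaving out a library called between 656 and 1392 higher. Relative to type I collagen, leaving out a library called between 0 and 1 of the 5 genes, and none of the other collagen denominators called any. In the main fit relative to collagen, 0.481% of all genes were called higher and 45.4% lower. The shares of all genes in the other fits relative to collagen are not given here, so their counts lack a background. Small values changed sign without being called: *plod2* reached -0.03 and *cthrc1a* -0.03 relative to collagen. Replicate numbers 2 and 4 occur in both genotypes, but deviations of equally numbered pools correlated at only 0.09 and 0.00, so the numbers were not treated as pairs. With a replicate block, 3 of 5 genes were called relative to collagen (*plod2* 0.38, *pcolce2b* 0.54, *cthrc1a* 0.59). Their edgeR adjusted p-values lay between 0.124 and 0.173. The share of all genes called in that fit is not given here, so these calls lack a background. In CPM with the block, *col1a2* was not called (0.29, edgeR adjusted p = 0.565), and 10 pathway genes were higher, as were 1018 of all genes. The block draws its fold changes from replicates 2 and 4 only. The cause of these differences was not tested. Variation between pools limits precision at 3 pools a genotype, while for *serpinh1b* and *cthrc1a* counting error (3.84% to 8.11%) adds to it.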

Other observations

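Among the 10 pairs of the 5 procollagen genes, deviations from the genotype means went together most closely for *serpinh1a* and *serpinh1b* (r = 0.79, n = 6 pools, a description without a test) and in opposite directions for *pcolce2b* and *cthrc1a* (r = -0.87, against 0.53 with the genotype means kept). The neighbours *plod2* and *pcolce2b*, with 8 protein-coding genes between them in the gene order of GRCz12tu, had r = 0.41. Per 1000 type I collagen counts, the 5 genes summed to 132, 89.3 and 119 in *mdka cn105* pools and to 102, 97.5 and 94.6 in *mdka +/+* pools, so that *mdka cn105* replicate 3 was the lowest of all 6 pools and the other *mdka cn105* pools were the highest. Type I collagen took 0.463% to 0.629% of all counts in *mdka cn105* libraries and 0.287% to 0.38% in *mdka +/+* libraries.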
